A study of Homo sapiens with 12 samples.

Results

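The sensors of foreign or misplaced nucleic acid form a set of 10 genes: the RNA sensors RIGI, IFIH1 (MDA5), DHX58 (LGP2), EIF2AK2 (PKR) and TLR3, the DNA sensor CGAS, the adaptors MAVS and STING1, and the transcription factors IRF3 and IRF7. They were chosen by gene symbol, and all 10 were found, with 29 of the 49395 probe sets on the array. The whole table represented 18132 genes. Total RNA from 3 human non-small cell lung cancer lines, H1993, H1693 and H1650, was hybridised to Affymetrix arrays, with 2 knockdown and 2 control arrays in each line. Knockdown cells had received a lentiviral short hairpin RNA against MARK2, a serine/threonine kinase of microtubules and cell polarity, and control cells the empty pLKO vector. All 12 cultures were therefore transduced, and the submitters selected the lines for high MARK2. The control carried no hairpin, so an effect of the hairpin RNA itself and an effect of losing MARK2 cannot be told apart here. How many hairpins were used, and whether transduced cells were pooled or cloned, is not stated in the labels. The series' design text calls the paired arrays of each group biological replicates, and each p-value rests on the spread between 2 cultures a group.

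RIG-I and MDA5 are helicases of the cytosol that bind viral or misplaced RNA and pass the signal to MAVS on mitochondria, while LGP2 lacks the signalling domains and tunes both. cGAS binds DNA in the cytosol and makes the messenger cGAMP, which activates STING at the endoplasmic reticulum. MAVS and STING lead to the kinase TBK1, which phosphorylates IRF3 and IRF7, and these factors switch on interferons and antiviral genes. TLR3 senses RNA in endosomes, and PKR stops translation by phosphorylating eIF2 alpha. Many of these genes are themselves induced by interferon through a DNA element that interferon-activated factors bind, which is why their promoters are shown here. In cancer cells the pathway is known for responding to damaged or leaked self DNA and RNA.

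RefSeq promoters (GRCh38.p14, from 250 bases before to 50 bases after the transcription start) were at hand for 5 of the 10 members, RIGI, IFIH1, EIF2AK2, TLR3 and MAVS. They were searched on both strands for the core of the interferon-stimulated response element (GAAA, any 2 bases, then GAAA), which 3.57% of all 35116 promoters of the table hold. IFIH1 held 3 matches, of which 2 overlap each other, EIF2AK2 and TLR3 held 1 each, and these letters were not found in the windows of RIGI and MAVS. The matches of EIF2AK2 and TLR3 span the start itself. The gamma-activated site TTCNNNGAA, held by 7.66% of promoters, was found at 2 places in TLR3 and at none in the other 4 windows. A match describes the letters and not a bound site. Parts of the windows are printed 5′ to 3′ on the gene's strand, with the response element core in capitals, to show where it lies relative to the start; RIGI is given as the member that rose in 2 lines with no match in its window. The stretch of IFIH1 is at chr2:162318685-162318854 (minus strand), that of EIF2AK2 at chr2:37156971-37157040 (minus strand), that of TLR3 at chr4:186069096-186069165 (plus strand) and that of RIGI at chr9:32526197-32526256 (minus strand).
IFIH1: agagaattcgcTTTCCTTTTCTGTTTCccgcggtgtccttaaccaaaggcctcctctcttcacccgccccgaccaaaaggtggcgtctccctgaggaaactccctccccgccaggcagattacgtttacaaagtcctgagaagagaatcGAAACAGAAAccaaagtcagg
EIF2AK2: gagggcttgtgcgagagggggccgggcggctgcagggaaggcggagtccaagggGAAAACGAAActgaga
TLR3: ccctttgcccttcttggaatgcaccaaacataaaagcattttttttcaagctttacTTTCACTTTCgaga
RIGI: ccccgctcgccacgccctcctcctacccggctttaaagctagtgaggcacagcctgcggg

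The values are log2 signals per probe set, so a difference of 1 is a 2-fold difference in signal, and array medians lay between 7.13 and 7.32. MARK2 fell to 6.76 and 6.77 in H1993 knockdown arrays, against 9.17 and 9.06 in control arrays, and to 6.62 and 6.57 in H1693 knockdown arrays, against 7.76 and 7.97 in control arrays. In H1650 it was 5.92 and 5.37 after knockdown and 6.07 and 5.80 in the control. That change of -0.29, between signals near the value of 5 used as a floor, did not pass (limma adjusted p = 0.156). It was -0.56 without knockdown replicate 1, and it passed after quantile normalisation (-0.44, adjusted p = 0.029). With the median over probe sets it was -0.13 in H1650 and did not pass (adjusted p = 0.459). The other MARK2 probe set was at -2.12 in H1993, -0.58 in H1693 and 0.03 in H1650 (adjusted p = 1.85e-05, 0.0268 and 0.916). The H1650 arrays also stood apart in RNA integrity. For GAPDH, the signal of the 3′ end minus that of the 5′ end was 6.87 and 6.77 (log2) in H1650 knockdown arrays and 2.28 and 3.07 in H1650 control arrays, while the 8 arrays of the other lines lay between -0.12 and 0.02. Changes in H1650 therefore move with RNA integrity, and the part of integrity in them was not tested. The 7 epithelial markers checked (EPCAM, CDH1 and keratins among them) were at a log2 signal of 5 or more on all 12 arrays. So were the 3 lung lineage markers (list means 7.10 to 7.38) and the 3 endothelial markers (6.05 to 6.41). A signal of 5 therefore does not tell cell types apart. The epithelial markers also moved: KRT8 averaged 7.19 in H1650 knockdown arrays and 11.66 in H1650 control arrays (-4.47, adjusted p = 1.04e-07), and CDH1 rose by 0.85 in H1993 and 0.72 in H1693. KRT7 averaged 6.38 in H1693 knockdown and 6.70 in H1693 control arrays, against 14.03 to 14.26 in the groups of the other lines. Of the 7 immune markers measured, 2 were at 5 or more on all arrays, and the mean of the list ran from 5.07 to 6.74 over the arrays. PTPRC, which marks leukocytes, had group means from 3.56 to 4.38, whereas CD68 was at 11.50 in both H1993 groups and CD14 at 8.72 in H1993 knockdown and 8.21 in H1993 control arrays. LYZ averaged 6.18 in H1993 knockdown arrays, against 4.48 in H1993 control arrays, and was below 5 on average in the other lines. Of 4 fibroblast markers, 2 were at 5 or more on all arrays, with list means from 5.85 to 8.13, and COL1A1 rose by 0.59 in H1993 and 0.67 in H1693 (adjusted p = 0.00834 and 0.00438). COL3A1 averaged 10.41 to 11.04 in the H1693 and H1650 groups, against 5.12 in H1993 knockdown and 4.69 in H1993 control arrays. The part of these markers in the members' changes was not tested. A signal from a whole culture cannot tell fewer expressing cells from less RNA per cell.

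The members that passed the threshold were not the same in each line. Passing in only some lines is not a test of a difference between lines. In H1993 IFIH1, RIGI and IRF7 rose and no member fell. In H1693 TLR3, DHX58, MAVS and IRF7 rose on the probe sets used, and CGAS and EIF2AK2 fell. With the median over probe sets DHX58 did not pass there (0.22, adjusted p = 0.183), while RIGI did (0.56, adjusted p = 0.000493). MAVS passed as higher there on 3 of its 7 probe sets. In H1650 IFIH1, RIGI, TLR3 and CGAS rose, STING1 and IRF3 fell, and DHX58 and EIF2AK2 each passed as higher on the probe set used and as lower on another, all beside the difference in RNA integrity. Genes counted here passed an adjusted p of 0.05 over 16205 genes tested in one limma model, in which all 10 members passed the filter on low signal. The 3 of 10 members that rose in H1993 compare with 18.9% of all genes tested, and the 0 that fell with 14.5%; 0 members were lower at an unadjusted p under 0.05 by limma. In H1693 4 rose, beside 17.1% of all genes, and 2 fell, beside 15.9%. In H1650 6 passed as higher, beside 36.7%, and 2 as lower, beside 16.7%; over all genes 68.8% of the H1650 calls were higher, against 57.7% after quantile normalisation. The median change of the 10 members was 0.22 in H1993, 0.28 in H1693 and 0.56 in H1650, against 0.02, -0.02 and 0.15 over all genes. Knockdown arrays lay wholly above control arrays for 6 members in H1993, 6 in H1693 and 7 in H1650, beside 34.7%, 32.9% and 51.1% of all genes, and wholly below for 1, 2 and 3, beside 29.0%, 36.1% and 22.4%. With only 10 members, such shares are not read as a property of the set.

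**Figure D1:**
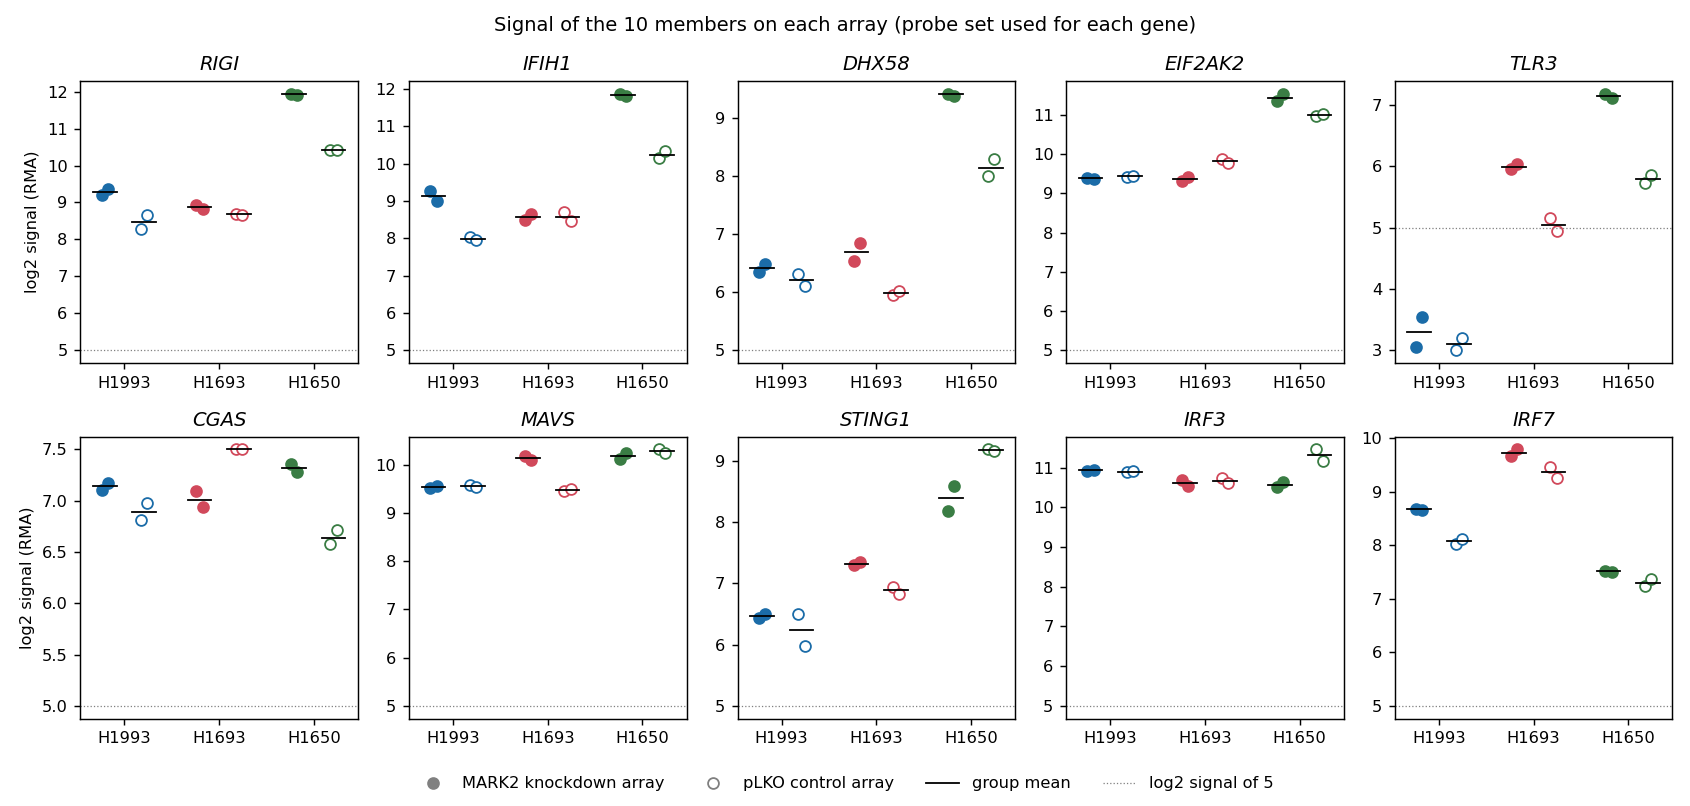
Log2 signal of the probe set used for each of the 10 members (vertical axis, RMA log2 units, a scale per panel) on each of the 12 arrays, with filled points for knockdown and open points for pLKO control arrays of H1993, H1693 and H1650, a black line at each group mean and a dotted line at a log2 signal of 5. RIGI, IFIH1 and DHX58 are highest on the H1650 arrays, IRF7 is highest on the H1693 arrays, and all 4 TLR3 points of H1993 lie below 5.

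IFIH1, the sensor of long RNA duplexes (GRCh38.p14, chr2:162267074-162318684), was at 9.26 and 9.01 in H1993 knockdown arrays, against 8.03 and 7.95 in control arrays. That is a rise of 1.14 (SE 0.12, adjusted p = 6.2e-05), or 2.21-fold, with groups that did not overlap. In H1693 it was 8.49 and 8.65 after knockdown and 8.71 and 8.45 in the control, so the groups overlapped and the change was -0.01 (adjusted p = 0.971). The difference between these changes, 1.15 (SE 0.16), passed (adjusted p = 0.00105). In H1650 IFIH1 was at 11.87 and 11.82 after knockdown and 10.15 and 10.33 in the control, a rise of 1.61 (adjusted p = 3.42e-06). Its dimmer probe set gave 0.51, -0.62 and 1.88 in H1993, H1693 and H1650, each past the threshold when all probe sets were tested (adjusted p = 0.0405, 0.0158 and 6.28e-06). The probe sets thus shared the rise in H1993 and H1650, and in H1693 the brighter showed no change that passed while the dimmer was lower.

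RIGI, the sensor of short RNA with a 5′ triphosphate end (GRCh38.p14, chr9:32455302-32526196), was at 9.19 and 9.37 in H1993 knockdown arrays, against 8.28 and 8.67 in control arrays. The rise of 0.81 (SE 0.12, adjusted p = 0.000503), or 1.75-fold, was seen on all 3 of its probe sets, at 0.71 to 0.87, and all 3 passed. In H1693 the probe set used was at 8.92 and 8.82 after knockdown and 8.70 and 8.66 in the control, a change of 0.19 that did not pass (adjusted p = 0.26). Another of its probe sets did pass in H1693, at 0.56 (adjusted p = 0.000937), with 8.16 and 8.15 after knockdown and 7.71 and 7.47 in the control, and the last was at 0.08. In H1650 RIGI was at 11.94 and 11.92 after knockdown and 10.41 and 10.42 in the control, a rise of 1.52 (adjusted p = 4.87e-06), with its probe sets between 0.48 and 1.52. The change in H1993 exceeded that in H1693 by 0.62 (adjusted p = 0.0233). Among fits without an H1993 or H1693 array the difference ran from 0.42 to 0.81. The call was lost without either H1693 control array or H1693 knockdown replicate 2 (0.57 to 0.64), or without H1993 knockdown replicate 2 (0.53). With the median over probe sets the RIGI difference was 0.31 and did not pass (adjusted p = 0.093).

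DHX58, the regulator of both helicases (GRCh38.p14, chr17:42101411-42112714), was at 6.53 and 6.85 in H1693 knockdown arrays, against 5.95 and 6.02 in control arrays, a rise of 0.70 (SE 0.13, adjusted p = 0.00209). In H1993 it was 6.35 and 6.48 after knockdown and 6.32 and 6.11 in the control, 0.20 higher without passing (adjusted p = 0.274). In H1650 it was 9.42 and 9.39 after knockdown and 8.01 and 8.29 in the control, 1.26 higher (adjusted p = 2.9e-05). The other 3 probe sets of DHX58 did not pass in H1693 (-0.18 to 0.24), and in H1650 they ran from -0.36, which passed as a fall (adjusted p = 0.0472), to 0.41. They are dim, between 4.51 and 6.48 on all arrays. With the median over probe sets, DHX58 was at 0.22 in H1693 and 0.02 in H1650 and passed in neither, so no direction is given for it in H1650. The DHX58 difference for H1993 minus H1693, -0.50, did not pass (limma adjusted p = 0.0775). With the median over probe sets that difference was 0.03 (adjusted p = 0.924).

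TLR3, the endosomal sensor (GRCh38.p14, chr4:186069156-186088073), has 1 probe set. It was at 5.96 and 6.03 in H1693 knockdown arrays, against 5.15 and 4.95 in control arrays, a rise of 0.95 (SE 0.15, adjusted p = 0.000928), or 1.93-fold. In H1650 it was 7.18 and 7.11 after knockdown and 5.72 and 5.86 in the control, a rise of 1.35 (adjusted p = 4.83e-05). In H1993 all 4 arrays were between 3.00 and 3.55, below the signal of 5 used as a floor, and the change of 0.20 (adjusted p = 0.366) is given as a value only. The difference between H1993 and H1693, -0.75 (adjusted p = 0.0307), includes those low signals. Among fits without an H1993 or H1693 array it ran from -0.99 to -0.50. The call was lost without either H1693 knockdown array, H1693 control replicate 2, H1993 control replicate 2 or H1993 knockdown replicate 1.

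EIF2AK2, the kinase that halts translation (GRCh38.p14, chr2:37099210-37156980), was at 9.31 and 9.41 in H1693 knockdown arrays, against 9.88 and 9.78 in control arrays, a fall to 72.2% of control (change -0.47, SE 0.08, adjusted p = 0.00138). Its other probe set fell there as well, by 0.61 (adjusted p = 0.00137). In H1993 the probe set used was at 9.40 and 9.37 after knockdown and 9.43 and 9.45 in the control (-0.05, adjusted p = 0.7). In H1650 the probe sets passed in opposite directions: the one used was at 11.35 and 11.54 after knockdown and 10.98 and 11.03 in the control (0.44, adjusted p = 0.00109), and the other at 9.90 and 10.17 after knockdown and 10.85 and 10.92 in the control (-0.85, adjusted p = 6.25e-05). No direction is therefore given for EIF2AK2 in H1650. The difference between H1993 and H1693 was 0.42 (adjusted p = 0.024). Its call was lost without any 1 of the 4 H1993 arrays or without replicate 1 of either H1693 group (0.37 to 0.43).

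**Figure D2:**
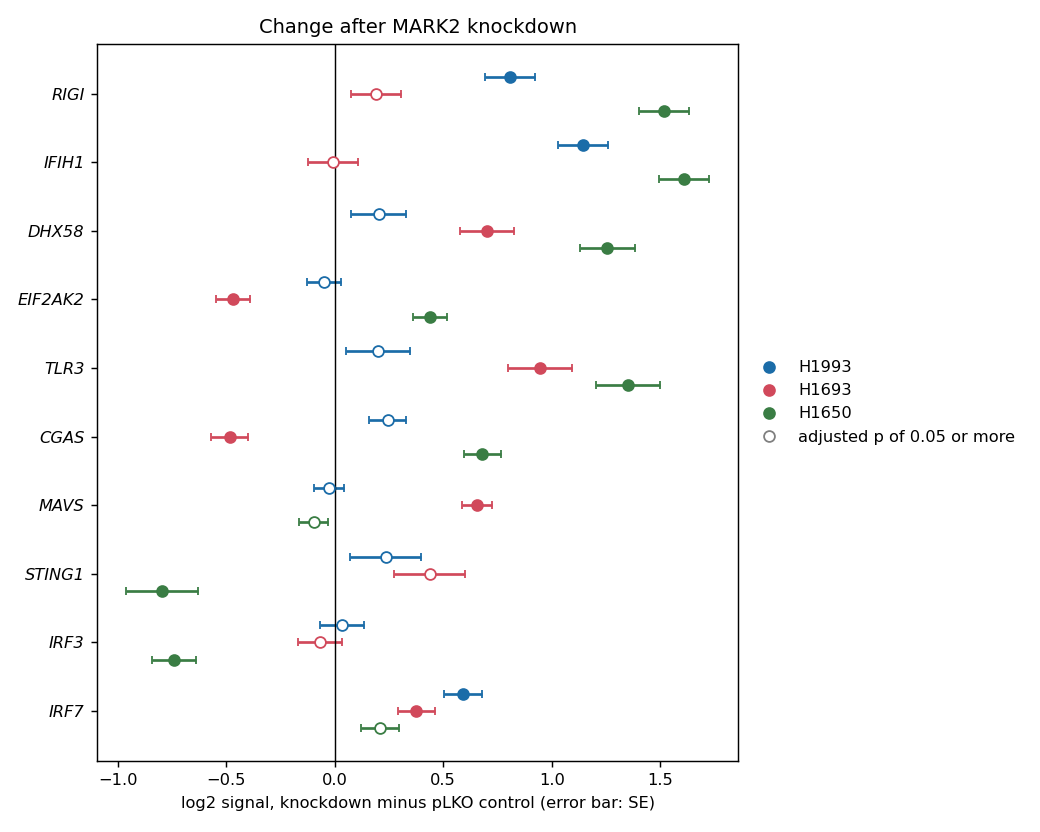
Change of each member after MARK2 knockdown (horizontal axis, log2 signal of knockdown minus pLKO control, with the SE of the limma fit as error bar) in H1993, H1693 and H1650, with filled points where the adjusted p was under 0.05. CGAS lies at 0.24 in H1993, -0.49 in H1693 and 0.68 in H1650, and IRF7 is right of 0 in all 3 lines.

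CGAS, the DNA sensor (GRCh38.p14, chr6:73423711-73452297), moved in opposite directions in H1693 and H1650. It was at 7.09 and 6.94 in H1693 knockdown arrays, against 7.50 and 7.50 in control arrays, a fall to 71.4% of control (change -0.49, SE 0.09, adjusted p = 0.0018). In H1650 it was 7.36 and 7.28 after knockdown and 6.58 and 6.71 in the control, a rise of 0.68 (adjusted p = 0.000113). In H1993 it was 7.10 and 7.17 after knockdown and 6.81 and 6.98 in the control, and the change of 0.24 did not pass (adjusted p = 0.0534), although it did without H1993 control replicate 2 (0.33, adjusted p = 0.0363). The other probe set was at -0.55 in H1693 and 0.62 in H1650, both past the threshold, and at 0.14 in H1993. The change in H1993 exceeded that in H1693 by 0.73 (adjusted p = 0.00238). Among fits without an H1993 or H1693 array that difference ran from 0.64 to 0.82.

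STING1, the adaptor below cGAS (GRCh38.p14, chr5:139475533-139482758), has 1 probe set. It fell to 8.18 and 8.59 in H1650 knockdown arrays, against 9.19 and 9.17 in control arrays, 57.6% of the control signal (change -0.80, SE 0.16, adjusted p = 0.00247), beside the difference in RNA integrity. In H1693 it was 7.30 and 7.35 after knockdown and 6.94 and 6.83 in the control, 0.44 higher without passing (adjusted p = 0.0705), and it passed in 4 of the 12 fits that leave out an array, those without either H1650 knockdown array or either H1993 control array, and with array weights (adjusted p = 0.0203). In H1993 it was 6.44 and 6.50 after knockdown and 6.50 and 5.98 in the control (0.23, adjusted p = 0.337), and without control replicate 1 there it was 0.49 and passed (adjusted p = 0.0393). The STING1 groups did not overlap in H1650 and H1693 and overlapped in H1993.

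MAVS, the adaptor of the RNA helicases (GRCh38.p14, chr20:3846834-3876118), was at 10.18 and 10.09 in H1693 knockdown arrays, against 9.46 and 9.49 in control arrays, a rise of 0.66 (SE 0.07, adjusted p = 8.11e-05), or 1.58-fold. In H1993 it was 9.52 and 9.57 after knockdown and 9.59 and 9.55 in the control (-0.03, adjusted p = 0.822), and in H1650 10.13 and 10.25 after knockdown and 10.32 and 10.25 in the control (-0.10, adjusted p = 0.257). The change in H1693 exceeded that in H1993, with a difference of -0.68 for H1993 minus H1693 (adjusted p = 0.00104). MAVS has 7 probe sets, and they disagreed. In H1693 3 of them passed as rises (0.66, 1.03 and 1.06), and the 4 others lay between -0.21 and 0.34. In H1993 1 passed as a rise (0.34, adjusted p = 0.0063) and 1 as a fall (-0.47, adjusted p = 0.000898). In H1650 1 passed as a rise (0.50) and 3 as falls, the lowest at -1.28. With the median over probe sets, MAVS passed as higher in H1993 (0.33, adjusted p = 0.00433) and as lower in H1650 (-0.57, adjusted p = 5.88e-05), and after quantile normalisation it passed as lower in H1650 (-0.20, adjusted p = 0.0425). Which transcripts of MAVS the probe sets read was not used here.

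IRF3, the factor that both adaptors activate (GRCh38.p14, chr19:49659572-49665857), did not pass in H1993 (0.03, adjusted p = 0.856) or H1693 (-0.07, adjusted p = 0.682). Its 6 probe sets lay between -0.15 and 0.06 in H1993 and between -0.07 and 0.14 in H1693, and each missed the threshold. In H1650 it fell to 10.51 and 10.64 in knockdown arrays, against 11.46 and 11.17 in control arrays (-0.74, SE 0.10, adjusted p = 0.000207). The 4 bright probe sets of IRF3 all fell there, by 0.74 to 0.95, while the 2 dim ones were at 0.20 and -0.18 and did not pass.

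IRF7, the interferon-inducible factor that amplifies the response (GRCh38.p14, chr11:612555-615950), was at 8.68 and 8.65 in H1993 knockdown arrays, against 8.03 and 8.12 in control arrays, a rise of 0.59 (SE 0.09, adjusted p = 0.000588). In H1693 it was 9.67 and 9.79 after knockdown and 9.46 and 9.25 in the control, a rise of 0.38 (adjusted p = 0.00799) that was lost without control replicate 2 (0.27, adjusted p = 0.0767) and without knockdown replicate 2 (0.32, adjusted p = 0.0682). In H1650 it was 7.51 and 7.50 after knockdown and 7.23 and 7.37 in the control (0.21, adjusted p = 0.067). On the probe sets used, the IRF7 knockdown arrays lay above the control arrays in all 3 lines, as did those of RIGI and DHX58. Another DHX58 probe set lay wholly below control in H1650 (5.87 and 5.99 against 6.48 and 6.11). Another RIGI probe set overlapped in H1693 (7.11 and 7.39 after knockdown, 7.29 and 7.05 in the control). The share of all genes lying above control in all 3 lines was not counted. IRF7 was the 1 member that missed the F test of whether the changes differ between the lines (adjusted p = 0.0614). The F test passed for the other 9 members, beside 54.9% of all genes, and for 6 of 10 the H1993 and H1693 changes differed, beside 22.1% of all genes.

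**Figure D3:**
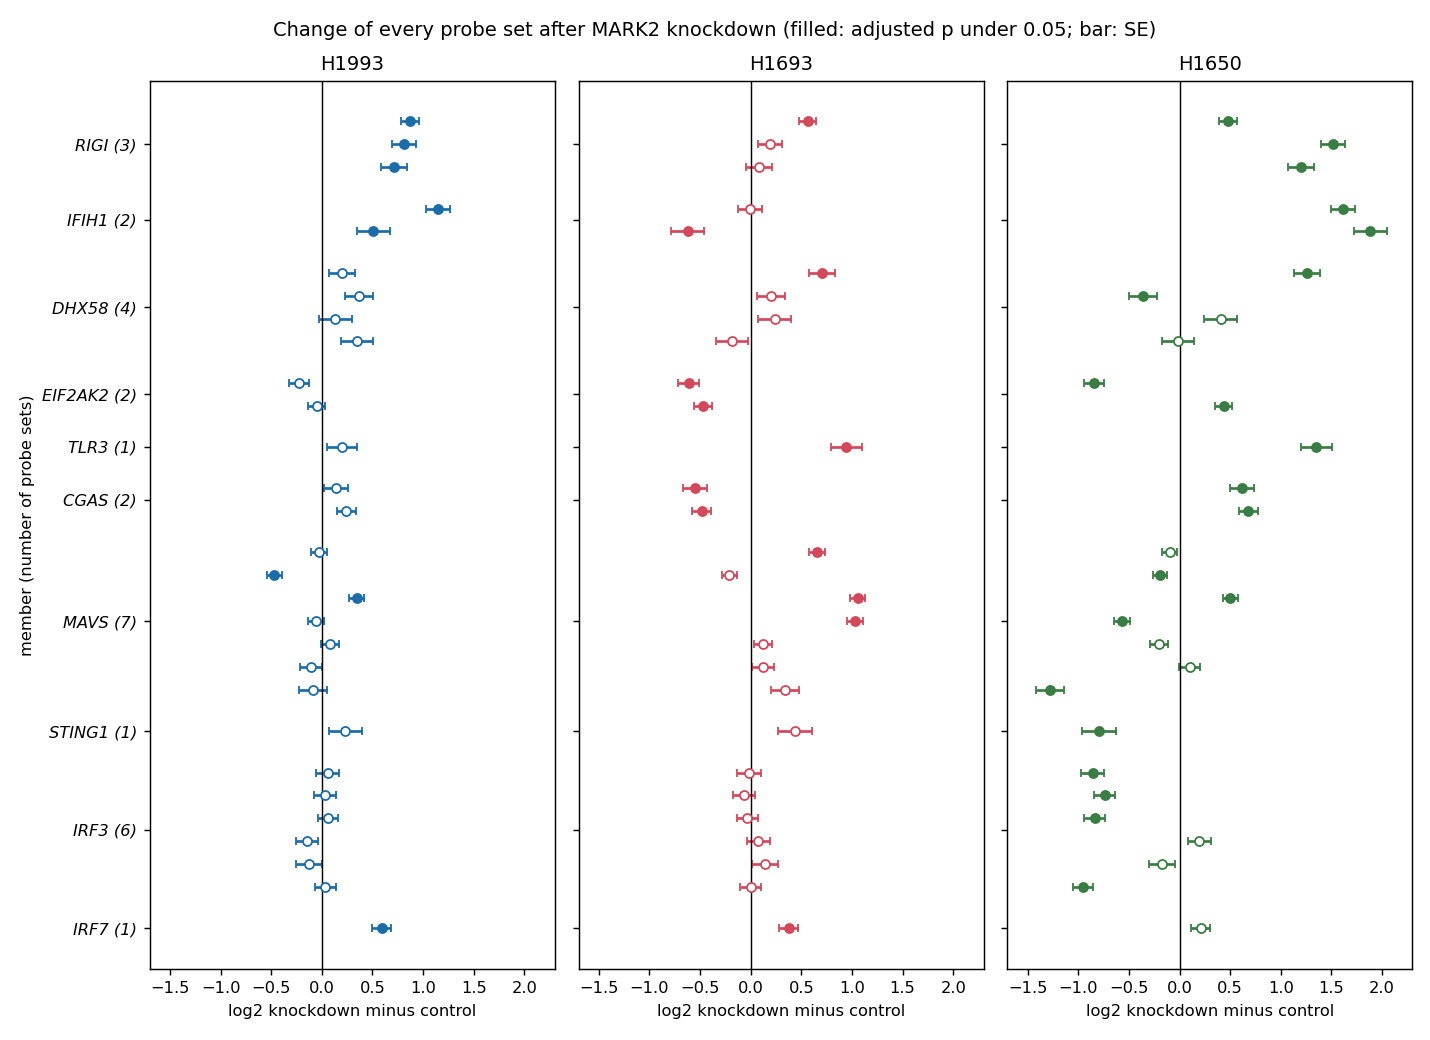
Change of every probe set of the 10 members after MARK2 knockdown (horizontal axis, log2 knockdown minus pLKO control, with SE), a panel per line, filled where the adjusted p over all probe sets was under 0.05. The 3 probe sets of RIGI lie at 0.71 to 0.87 in H1993, while those of MAVS in H1650 run from -1.28 to 0.50.

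Over all 29 probe sets, tested with the 38924 that passed the filter, 7 were higher and 1 lower after knockdown in H1993, beside 15.0% and 13.7% of all probe sets. In H1693 7 were higher and 5 lower, beside 15.7% and 13.4%. In H1650 11 were higher and 10 lower, beside 30.0% and 21.3%. In H1650 DHX58, EIF2AK2 and MAVS each had probe sets past the threshold in both directions, and in H1993 MAVS did.

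Control levels of most members differed between the lines, as did those of most genes. Between control arrays of H1993 and H1693, 6 of 10 members differed, all lower in H1993, beside 63.0% of all genes (30.1% higher and 32.9% lower). Between H1993 and H1650 all 10 differed, 2 higher and 8 lower in H1993, beside 63.8% (23.7% higher and 40.1% lower). Between H1693 and H1650 all 10 differed, again 2 higher and 8 lower in H1693, beside 63.0% (24.5% higher and 38.5% lower). The H1650 control arrays carry their own 3′ minus 5′ difference, so line and RNA integrity cannot be told apart in the comparisons with H1650.

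On the probe sets used, the RNA sensors had their highest control signal in H1650. RIGI averaged 8.48 ± 0.28 in H1993, 8.68 ± 0.02 in H1693 and 10.41 ± 0.01 in H1650 (SD, n = 2 each), and H1993 minus H1693 was -0.20 (adjusted p = 0.157). That difference passed without H1993 control replicate 2 (-0.40, adjusted p = 0.00554), and in the other direction on 1 of the other probe sets (0.31, adjusted p = 0.00975) and with the median over probe sets (0.31, adjusted p = 0.00662), so no order of H1993 and H1693 is given for RIGI. H1993 minus H1650 was -1.94 for RIGI (adjusted p = 1.62e-07), and -2.76 and -1.56 on its other probe sets. IFIH1 averaged 7.99 ± 0.06, 8.58 ± 0.18 and 10.24 ± 0.13 in the same order, each step past the threshold, though its dimmer probe set was 1.29 higher in H1693 than in H1650 (adjusted p = 4.29e-05), and with the median over probe sets H1693 minus H1650 was -0.18 for IFIH1 and did not pass (adjusted p = 0.227). DHX58 averaged 6.21 ± 0.14, 5.99 ± 0.05 and 8.15 ± 0.20, with H1993 minus H1693 at 0.23 (adjusted p = 0.148). On the other 3 probe sets of DHX58, H1993 minus H1650 was -0.82 (adjusted p = 0.000319), -0.24 and -0.01, of which the last 2 did not pass. With the median over probe sets it was -0.42 (adjusted p = 0.00764), and H1693 minus H1650 was -0.44 (adjusted p = 0.0057). EIF2AK2 averaged 9.44 ± 0.02, 9.83 ± 0.07 and 11.01 ± 0.04, and both its probe sets gave the same order. TLR3 averaged 3.10 ± 0.14, 5.05 ± 0.15 and 5.79 ± 0.10, with the H1993 value below the floor.

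The adaptors and factors were ordered differently from each other. STING1 had the widest gap to H1650, at 6.24 ± 0.37 in H1993, 6.89 ± 0.08 in H1693 and 9.18 ± 0.02 in H1650. H1993 minus H1650 was -2.94 for STING1 (SE 0.16, adjusted p = 1.02e-07), a 7.69-fold lower signal in H1993. On the probe set used, MAVS averaged 9.57 ± 0.03, 9.48 ± 0.02 and 10.29 ± 0.05. There H1993 and H1693 did not differ past the threshold (0.09, adjusted p = 0.273). Other MAVS probe sets passed in both directions for H1993 minus H1693 (0.74, adjusted p = 1.11e-05, and -0.48, adjusted p = 0.00016). No order of H1993 and H1693 is therefore given for MAVS. Its H1993 minus H1650 was 0.32 on another probe set (adjusted p = 0.0091) and -1.63 with the median over probe sets (adjusted p = 3.69e-09). CGAS ran the other way, at 6.89 ± 0.13, 7.50 ± 0.01 and 6.64 ± 0.09, lowest in H1650; its other probe set was also lowest in H1650 but had H1993 and H1693 within 0.07 of each other (adjusted p = 0.648). The CGAS difference of 0.25 between H1993 and H1650 (adjusted p = 0.0247) was lost without H1993 control replicate 2 (0.16), without H1650 control replicate 1 (0.19) and with a trended and robust variance model (adjusted p = 0.0618). IRF7 was highest in H1693, at 8.07 ± 0.06, 9.36 ± 0.15 and 7.30 ± 0.10, and its H1693 signal was 2.06 above H1650 (adjusted p = 1.57e-08), a 4.17-fold difference. IRF3 averaged 10.90 ± 0.02, 10.67 ± 0.07 and 11.32 ± 0.21, but its 2 dim probe sets were 1.03 and 1.22 higher in H1993 than in H1650, so no order is given for it.

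**Figure D4:**
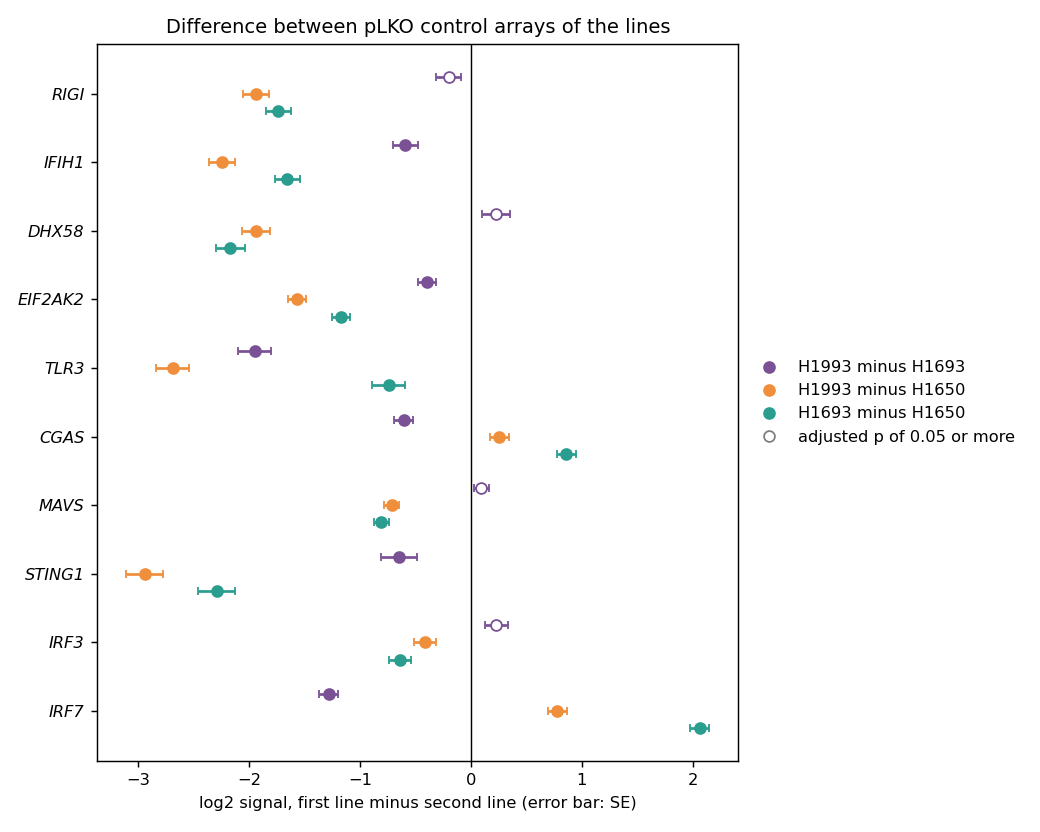
Differences between pLKO control arrays of the lines for each member (horizontal axis, log2 signal of the first line minus the second, with the SE of the limma fit), filled where the adjusted p was under 0.05. Points for H1993 minus H1650 and H1693 minus H1650 lie left of 0 for 8 members and right of 0 for CGAS and IRF7.

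The signalling genes around the sensors were described by lists chosen with earlier results known. Of 18 measured ubiquitin ligases, adaptors and kinases of RNA sensing, 6 rose and 1 fell in H1993 (median change 0.12), 7 rose and 2 fell in H1693 (0.24), and 11 rose and 3 fell in H1650 (0.43). Over all genes tested, 18.9% rose and 14.5% fell in H1993, 17.1% and 15.9% in H1693, and 36.7% and 16.7% in H1650, with median changes of 0.02, -0.02 and 0.15. TICAM1, the adaptor of TLR3, was at 9.72 and 9.67 in H1993 knockdown arrays, against 8.94 and 9.14 in control arrays, a rise of 0.66 (adjusted p = 0.000513). TICAM1 also rose by 0.61 in H1650 (adjusted p = 0.000427). TRAF3, which links MAVS to TBK1, rose by 0.52 in H1993 and 0.47 in H1693 (adjusted p = 0.000582 and 0.00115). TANK, a scaffold of TBK1, rose by 1.51 in H1650 (adjusted p = 0.000118). CASP8 rose by 1.05 in H1693 (adjusted p = 0.02) and fell by 0.84 in H1650 (adjusted p = 0.0331).

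Regulators of DNA sensing went both ways. Of 18 tested of 20, 6 rose and 7 fell in H1993, 6 rose and 7 fell in H1693, and 5 rose and 6 fell in H1650, with medians of 0.03, -0.05 and 0.01. The shares over all genes were 18.9% and 14.5%, 17.1% and 15.9%, and 36.7% and 16.7% in these lines. HMGB1, a chromatin protein that aids DNA sensing, was lower in all 3 lines. Its change was -0.81 in H1993, -0.54 in H1693 and -0.31 in H1650 (adjusted p = 6.09e-05, 0.000721 and 0.00844). ENPP1, which degrades cGAMP, was at 9.15 and 9.22 in H1693 knockdown arrays, against 8.06 and 8.03 in control arrays, a rise of 1.14 (adjusted p = 5.53e-06). ENPP1 also rose by 0.50 in H1993 and 1.06 in H1650 (adjusted p = 0.000551 and 2.71e-06). IFI16, another DNA sensor, was at 11.01 and 10.97 in H1650 knockdown arrays, against 8.87 and 9.28 in control arrays, a rise of 1.92 (adjusted p = 3.26e-06). G3BP1, a stress granule protein that binds cGAS, was also lower in all 3 lines. Its change was -0.33 in H1993, -0.44 in H1693 and -1.62 in H1650 (adjusted p = 0.0099, 0.00195 and 4.67e-07).

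Of 18 tested of 21 other nucleic acid sensors, 6 rose and 2 fell in H1993 (median 0.17), 4 rose and 3 fell in H1693 (0.07), and 11 rose and 2 fell in H1650 (0.29). The shares of all genes that rose in these lines were 18.9%, 17.1% and 36.7%, and those that fell 14.5%, 15.9% and 16.7%. The 4 of 18 that rose and the 3 of 18 that fell in H1693 are near that background. DDX60, an antiviral helicase relative that is induced by interferon, rose by 0.62, 0.73 and 1.40 in H1993, H1693 and H1650 (adjusted p = 0.00168, 0.000699 and 5.54e-06). OAS1, which makes the activator of RNase L, was at 7.15 and 7.17 in H1693 knockdown arrays, against 5.63 and 5.64 in control arrays (1.53, adjusted p = 1.99e-05). It rose by 0.52 in H1650 and fell by 0.53 in H1993 (adjusted p = 0.00526 and 0.00818). IFIT1, which binds foreign RNA caps, rose by 0.55 in H1993 and 1.67 in H1650. Of 16 tested negative regulators, 5 rose and 2 fell in H1993 (median 0.01), 4 rose and 2 fell in H1693 (0.10), and 8 rose and 4 fell in H1650 (0.27), beside the same shares of all genes. SOCS1, which blocks JAK kinases, rose by 0.62 in H1993 and 0.63 in H1693 (adjusted p = 0.00739 and 0.00669) and fell by 0.60 in H1650 (adjusted p = 0.00514). TNFAIP3, a brake on NF-kB, rose by 1.96 in H1650 and 0.42 in H1993 (adjusted p = 1.46e-06 and 0.0225).

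Downstream of the sensors, IRF9, the DNA-binding subunit of the factor that interferon activates, rose in all 3 lines. It was at 9.80 and 9.84 in H1993 knockdown arrays, against 8.38 and 8.47 in control arrays, a rise of 1.39 (adjusted p = 6.79e-07), and it rose by 0.39 in H1693 and 0.50 in H1650 (adjusted p = 0.00108 and 0.000109). Of the 6 measured members of its family other than IRF3 and IRF7, 2 rose in H1993, 1 in H1693 and 2 in H1650, where 2 fell, beside 18.9%, 17.1% and 36.7% of all genes that rose and 16.7% that fell in H1650. IRF1 rose by 0.65 in H1993 (adjusted p = 0.000777) and fell by 0.78 in H1650 (adjusted p = 0.000123). Of 9 measured interferon receptor and JAK genes, 4 rose and 2 fell in H1993 (median 0.01), 2 rose and 2 fell in H1693 (-0.07), and 5 rose and 2 fell in H1650 (0.22), beside 18.9%, 17.1% and 36.7% of all genes that rose and 14.5%, 15.9% and 16.7% that fell. The 2 of 9 that rose in H1693 are near that background. IFNGR1 rose by 0.79 in H1993 and 1.10 in H1650 (adjusted p = 1.74e-05 and 1.03e-06), and IFNLR1 fell by 1.27 in H1993 (adjusted p = 3.59e-06), to signals of 4.66 and 4.74, and rose by 0.57 in H1650 (adjusted p = 0.000192).

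Of 6 interferon genes measured, 4 passed the filter. In H1993 1 rose and 1 fell, beside 18.9% and 14.5% of all genes. The fall was that of IFNG, at 5.13 and 5.08 after knockdown and 5.62 and 5.41 in the control, near the floor of 5. In H1650 IFNE passed as higher (0.67, adjusted p = 0.00184), beside 36.7% of all genes, and IFNB1 is not counted. IFNB1, the interferon that IRF3 switches on, was at 6.50 and 6.77 in H1650 knockdown arrays, against 4.53 and 4.58 in control arrays. Its means in the 4 groups of the other lines lay between 3.87 and 3.98, so IFNB1 passed the filter on low signal only through the H1650 knockdown arrays, and no fold or test is read from it. IFNE, an epithelial interferon, was at 7.04 and 7.04 in H1993 knockdown arrays, against 5.23 and 5.50 in control arrays, a rise of 1.68 (adjusted p = 1.42e-05). Of 10 immediate targets of IRF3, 7 rose in H1993 (median 0.53), 5 in H1693 (0.29), and 8 rose and 1 fell in H1650 (0.59), beside 18.9%, 17.1% and 36.7% of all genes that rose and 16.7% that fell in H1650, where RNA integrity differed. ISG15, a ubiquitin-like modifier, rose by 0.68 in H1993 and 0.58 in H1693 (adjusted p = 3.71e-05 and 0.000108), and PMAIP1, a pro-apoptotic BCL2 relative, by 0.83 and 0.72 (adjusted p = 2.75e-05 and 7.1e-05). ISG15 and PMAIP1 also rose in H1650, by 0.60 and 0.58 (adjusted p = 3.83e-05 and 0.000121). In H1650 CXCL10 was at 8.42 and 8.40 after knockdown and 5.51 and 5.42 in the control, whereas CCL5 fell by 1.69 (adjusted p = 7.39e-05).

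Around EIF2AK2, 3 of 9 genes of eIF2 alpha phosphorylation and its response rose and 1 fell in H1993, 4 rose and 2 fell in H1693, and 1 rose and 3 fell in H1650, with medians of -0.11, 0.22 and 0.02, beside 18.9%, 17.1% and 36.7% of all genes that rose and 14.5%, 15.9% and 16.7% that fell. PPP1R15A, the phosphatase subunit that reverses the phosphorylation, rose by 0.51 in H1993 and 0.57 in H1693 (adjusted p = 0.00151 and 0.000909). DDIT3, a stress transcription factor, rose by 0.84 in H1693 (adjusted p = 0.000939) and fell by 1.01 in H1650 (adjusted p = 0.000142). EIF2S1, eIF2 alpha itself, fell by 0.36 and 0.53 in H1993 and H1693 (adjusted p = 0.00246 and 0.000275).

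For each member that passed in H1993 or H1693, the genes with the most similar signal over the 12 arrays were found by Pearson's r, given as a description. RIGI was most like ZNF12 and SNRK (both r = 0.99), IFIH1 like FBXW7 and EDRF1 (both 0.99), TLR3 like FRMD5 and DYRK1A (both 0.99), and IRF7 like EIF4A2 and SERPINI1 (both 0.99). DHX58 was most like ASAP2 and ZNF19 (both 0.99) and EIF2AK2 like NUP133 and CPSF3 (both 0.99). CGAS reached 0.92 with ADAMTS3 and 0.90 with MRI1, and MAVS 0.97 with A1BG and 0.96 with EXOC4. The 12 arrays hold 4 from each line, so r takes in differences between lines as well as those after knockdown.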

How the data were processed

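Per the labels' protocols, biotinylated cRNA of total RNA was hybridised to 1 array a sample. The authors deposited log2 signals for each probe set. The submitters' processing notes name RMA and Affymetrix Expression Console, with no version. RMA subtracts background and normalises all arrays to one distribution, so dim signals are compressed and a shift of all genes is removed. The number of arrays limits the precision.

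Gene names came from the platform annotation, updated by gene ID to the RefSeq table (GRCh38.p14). Of 49395 probe sets, 1832 with several symbols, 2569 with none and 102 controls were left out. The probe set with the highest mean stood for its gene, and 16205 genes with at least 2 arrays at a log2 signal of 5 were tested with limma 3.58.1 in R 4.3.3: a mean for each of the 6 groups over 12 arrays, eBayes, two-sided, Benjamini-Hochberg over all genes, threshold 0.05. A second fit ran over 38924 probe sets. Alternatives were the filter, normalisation, probe set choice, variance model, array weights, replicate block, omission of H1650 and omission of each array. The named genes are the 10 members, MARK2, some cell type markers, genes from 9 pathway lists, and the 2 genes most like each member. From each list and line, up to 3 genes past the threshold with the largest change in either direction were taken (otherwise up to 2 as values). Only part of the genes so taken are described in the text, and the choice among them followed no stated rule. The members and lists were chosen with earlier results of these data known. The fit was tested on simulated data. In pairs of replicate arrays 0.0511% to 0.102% of values were identical, so no array was a copy.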

Additional observations from a re-analysis of the deposited data

Results flagged for a closer look

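The change after MARK2 knockdown differed between H1993 and H1693 for 6 members, by limma's test of the difference itself (H1993 minus H1693, log2): IFIH1 by 1.15, CGAS by 0.73, RIGI by 0.62, EIF2AK2 by 0.42, MAVS by -0.68 and TLR3 by -0.75, the last with H1993 signals below the floor. In the fits that leave out an array, the difference ran from 1.02 to 1.28 for IFIH1, 0.64 to 0.82 for CGAS and -0.73 to -0.64 for MAVS. Leaving out an H1650 array does not move these values, so only the fits without an H1993 or H1693 array bear on their size. Over all 3 lines the F test passed for IFIH1 (adjusted p = 9.42e-05), CGAS (adjusted p = 0.000121), MAVS (adjusted p = 0.000254), RIGI (adjusted p = 0.000355), EIF2AK2 (adjusted p = 0.000355), DHX58 (adjusted p = 0.00239), IRF3 (adjusted p = 0.00256), STING1 (adjusted p = 0.00298) and TLR3 (adjusted p = 0.00324). That test includes the H1650 arrays, whose mean 3′ minus 5′ GAPDH signal was 6.82 after knockdown and 2.68 in the control, and DHX58, EIF2AK2 and MAVS have probe sets past the threshold in both directions there.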

How the results depend on the processing

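The counts of members stayed within 1.5 times their reported value under every alternative run, the cut-off set for an unchanged count, and some reached it. In H1650 the median over probe sets gave 4 members higher and 3 lower, where the main fit gave 6 and 2. In H1693 it kept 4 higher, but with RIGI in place of DHX58. With the median over probe sets, MAVS in H1993 was at 0.33 (adjusted p = 0.00433), EIF2AK2 in H1650 at -0.20, the DHX58 difference between H1993 and H1693 at 0.031 and the RIGI control difference between H1993 and H1693 at 0.31, each opposite in sign to the reported value; by construction that setting reads other probe sets. Values that did not pass changed sign among the 12 fits that leave out an array: IFIH1 in H1693 (-0.14 to 0.12), IRF3 in H1693 (-0.15 to 0.013), STING1 in H1993 (-0.026 to 0.49), TLR3 in H1993 (-0.049 to 0.45) and the STING1 difference between H1993 and H1693 (-0.46 to 0.057). Of 1540 single-gene values under alternatives, 1481 kept direction and call, 25 lost the call, 24 gained it and 10 changed sign. Those values include MARK2. Changing the filter or the variance model, or leaving out an array of a line not compared, cannot move the log2 value itself. Part of that agreement was therefore fixed in advance. Quantile normalisation moved the median change of all genes in H1650 from 0.15 to 0.04, and the share of its calls that were higher from 68.8% to 57.7%. Knockdown and control arrays of one replicate number deviated with correlations of 0.29 in H1993, -0.18 in H1693 and -0.11 in H1650. With 2 arrays a group, these correlations cannot decide whether arrays of one number share more than the number. The main fit used no pairing. With the replicate block, by number or within line, the counts were 3 higher in H1993, 4 higher and 2 lower in H1693, and 6 higher and 2 lower in H1650, as without it. Signals near 5 limit DHX58 and TLR3, and MARK2 in H1650.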
